A study of Mus musculus with 21 samples.

Results

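Kidney miRNAs were compared between 3 libraries collected 3 days after folic acid and 3 libraries of day 0, out of 21 libraries over 7 days. All 6 came from whole kidney of male BALB/c mice aged 12 weeks. The treated animals received folic acid at 250 mg/kg, dissolved in a bicarbonate solution that has no group of its own among the samples. Day 0 was the only reference for this comparison, and whether its mice had been injected is not in the labels. No later day has an uninjected or vehicle group, so effects of folic acid, of the vehicle and of time cannot be told apart. The samples carry no genetic modification. The comparison covered the 431 of 1125 mature miRNAs that passed a filter on low reads. That filter looks at read number over all 7 days and not at the difference between days 0 and 3. A scarce miRNA can still pass it through the libraries of 1 day where its reads are high. Nothing in the labels says that libraries of 1 day are from different mice, and p-values therefore speak of the variation among libraries, which may be technical.

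A miRNA is cut from a hairpin precursor that can release a 5p and a 3p strand. The strand that is loaded into an Argonaute protein guides it to messenger RNAs, chiefly through its seed near the 5′ end, so miRNAs with the same seed share many predicted targets. High doses of folic acid injure the renal tubule, and surviving tubule cells divide and redifferentiate while leukocytes enter the tissue and fibroblasts become active. The healthy tubule is rich in miR-192, miR-194, miR-10 and miR-30 family miRNAs, whereas miR-21 is a widely studied injury miRNA of kidney.

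Levels are TMM-scaled CPM: a miRNA's reads scaled to a common library total, after a scaling factor per library that aligns the bulk of miRNAs. Differences are log2 fold changes on log2(CPM + 1), day 3 minus day 0, which understates the change of scarce miRNAs. They were tested with limma in 1 fit over the 21 libraries, and a miRNA was called at a Benjamini-Hochberg adjusted p under 0.05. The 6 libraries held 3212481 to 5886820 reads assigned to miRNAs. Correlations of log2 levels were 0.992 to 0.996 between libraries of the same day and 0.969 to 0.978 between the 2 days. Among miRNAs of at least 10 CPM the median coefficient of variation was 10.8% at day 0 and 9.63% at day 3.

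The sequences below carry the main differences, and capitals mark the seed, bases 2 to 8 from the 5′ end. They are RefSeq's mature miRNAs on the mouse build GRCm38.p6, where 336 of the 431 tested miRNAs had an entry. The first set holds the miRNA with the largest gain in reads, its partner strand, and 2 pairs with a common seed.
miR-21-5p: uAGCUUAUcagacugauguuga
miR-21-3p: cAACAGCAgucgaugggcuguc
miR-132-3p: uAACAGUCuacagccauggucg
miR-212-3p: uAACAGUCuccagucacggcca
miR-146a-5p: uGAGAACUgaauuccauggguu
miR-146b-5p: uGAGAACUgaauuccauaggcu

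miR-132-3p and miR-212-3p differ at 5 of 22 bases, the first at position 10. Both rose. miR-146a-5p and miR-146b-5p differ at 2 of 22 bases, the first at position 18, and of this pair miR-146b-5p alone was called.

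A second set shares the seed AAAGUGC. miR-17-5p and miR-20a-5p lie in 1 cluster, miR-93-5p and miR-106b-5p in another, and miR-106a-5p and miR-20b-5p in the third, on the X chromosome.
miR-17-5p: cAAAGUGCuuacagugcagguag
miR-20a-5p: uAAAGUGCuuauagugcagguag
miR-93-5p: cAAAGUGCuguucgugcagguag
miR-106b-5p: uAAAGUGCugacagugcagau
miR-106a-5p: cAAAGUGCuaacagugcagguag
miR-20b-5p: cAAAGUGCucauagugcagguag

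The first 4 of these rose and the last 2 fell, although miR-17-5p differs from miR-106a-5p at 1 of 23 bases and miR-20a-5p from miR-20b-5p at 2 of 23. A read that carries an error at a differing base can be assigned to the wrong member of such a pair.

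The seed AUUGCAC had the same kind of split. Its first 3 members below rose and its last 2 fell.
miR-92a-3p: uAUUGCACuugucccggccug
miR-25-3p: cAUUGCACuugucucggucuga
miR-92b-3p: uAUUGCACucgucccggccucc
miR-32-5p: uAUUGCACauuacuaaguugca
miR-363-3p: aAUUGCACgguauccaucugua

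Among seeds shared by 3 or more tested miRNAs, GUAAACA of the miR-30 family had 3 members with a sequence in RefSeq, and all 3 fell. GAGGUAG of the let-7 family had 9, of which 4 rose and none fell by the test, against 30.4% and 19.0% of all miRNAs tested. In this family let-7i-5p moved most and is set beside its nearest relative let-7g-5p, which differs at 2 of 22 bases.
miR-30a-5p: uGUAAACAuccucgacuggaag
miR-30c-5p: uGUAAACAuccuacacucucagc
miR-30e-5p: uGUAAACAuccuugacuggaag
let-7i-5p: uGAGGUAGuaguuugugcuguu
let-7g-5p: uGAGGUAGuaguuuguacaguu

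Further sequences belong to miRNAs that led the rises, marked leukocytes or mesenchymal cells, led the losses in reads (miR-192-5p), fell among the epithelial miRNAs (miR-203-3p), or changed their balance between the arms of 1 hairpin (miR-181c).
miR-298-5p: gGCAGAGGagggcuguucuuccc
miR-223-3p: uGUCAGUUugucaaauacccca
miR-214-3p: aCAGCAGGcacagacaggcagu
miR-192-5p: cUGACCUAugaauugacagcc
miR-203-3p: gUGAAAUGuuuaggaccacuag
miR-181c-5p: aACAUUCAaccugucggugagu
miR-181c-3p: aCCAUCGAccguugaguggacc

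At day 3 the kidney held more miR-21, miR-132, miR-212, miR-146b, miR-214 and miR-223 and less miR-192, miR-30, miR-101 and miR-193 than at day 0. Of 431 miRNAs, 131 were higher (30.4%) and 82 lower (19.0%), 49.4% in all. The rises were larger than the falls: the median log2 fold change was 0.93 among the higher and -0.64 among the lower, against 0.06 over all miRNAs. A log2 fold change above 1 was reached by 58 of the higher miRNAs and below -1 by 10 of the lower, and 13 rose by more than 2 on that scale while none fell by as much. Of the 58, only 27 had a mean of at least 10 CPM across the 6 libraries, and the like count for the falls was not made. Scarce miRNAs can pass the filter through the day where they are high, which bears on the comparison of rises and falls. In 207 of the 213 calls the 3 libraries of day 3 did not overlap those of day 0, against 243 (56.4%) among all 431 miRNAs, these 207 included. Overlap and call rest on the same 6 libraries, so the lack of overlap is no separate support for a call. At a mean of 10 CPM or more across the 6 libraries 163 of 292 miRNAs were called, and below that level 50 of 139.

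The balance of rises and falls depends on the scaling. TMM factors were 0.888 to 0.990 at day 0 and 1.06 to 1.11 at day 3, which lowers every day 3 level relative to the library totals. With library totals alone, 145 miRNAs were higher and 50 lower, and the median over all miRNAs moved from 0.06 to 0.23. Rises as large as those of miR-21-5p or miR-146b-5p are far outside that shift, while several falls of abundant miRNAs given below were not called on library totals.

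**Figure D1:**
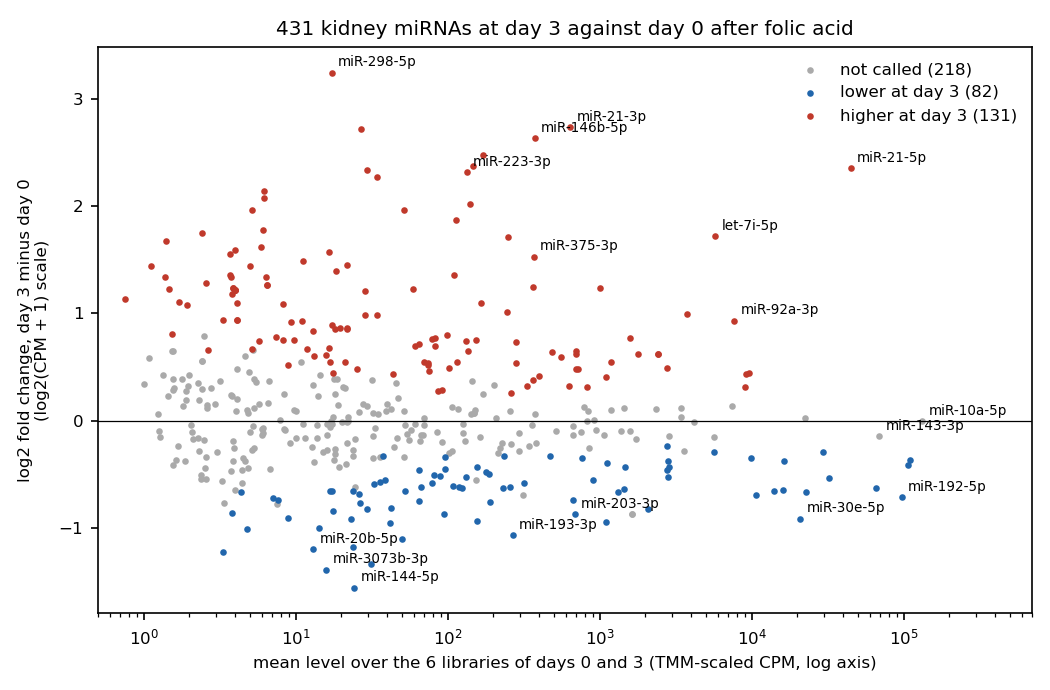
Each point is 1 of 431 miRNAs, with its mean level over the 6 libraries of days 0 and 3 (TMM-scaled CPM, log axis) against its log2 fold change, day 3 minus day 0. The 131 called higher (red) reach 3.24 and the 82 called lower (blue) reach -1.55, and miR-21-5p stands apart among the abundant miRNAs.

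miR-21, whose hairpin lies in an exon of Vmp1 on chromosome 11, showed the largest gain in reads. miR-21-5p (chr11:86584120-86584141) stood at 15616, 15742 and 12862 CPM at day 0 and 77780, 80956 and 66720 CPM at day 3. Every day 3 library was several times above every day 0 library (log2 fold change 2.35, SE 0.15, adjusted p = 5.00e-10). Its other strand miR-21-3p stood at 188, 196 and 124 CPM at day 0 and 1291, 1095 and 966 CPM at day 3, with no overlap either (log2 fold change 2.73, SE 0.20, adjusted p = 1.41e-09). As a share of all miRNA reads the 2 strands together went from 1.41% ± 0.155 to 8.22% ± 0.653 (SD, n = 3 per day).

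miR-132 and miR-212 come from 1 transcript on chromosome 11 and are known targets of CREB signalling, and both are also listed among miRNAs induced by inflammatory signals. miR-132-3p stood at 56.5, 51.2 and 46.02 CPM at day 0 and 289, 290 and 288 CPM at day 3, and the day 3 libraries lay within a few CPM of each other. It was 5.64 times as high at day 3 (log2 fold change 2.48, SE 0.20, adjusted p = 3.70e-09). miR-212-3p was scarcer, at 8.07, 6.88 and 4.63 CPM at day 0 and 48.6, 44.5 and 49.5 CPM at day 3, and its groups were as clearly apart (log2 fold change 2.72, SE 0.24, adjusted p = 1.39e-08).

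The miR-146 pair acts on adaptors of Toll-like and interleukin-1 receptor signalling. miR-146b-5p, in an intron of Mfsd13a on chromosome 19, stood at 92.2, 87.2 and 128 CPM at day 0 and 628, 838 and 475 CPM at day 3. Its day 3 libraries spread widely but all exceeded every day 0 library (log2 fold change 2.63, SE 0.20, adjusted p = 3.22e-09). miR-146a-5p stood at 215, 200 and 340 CPM at day 0 and 279, 318 and 199 CPM at day 3, so the 2 days overlapped and the difference was not called (log2 fold change 0.09, SE 0.21, adjusted p = 0.752). The sign of the miR-146a-5p difference changed when 1 of 3 libraries was left out or with upper-quartile scaling.

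Among 8 tested miRNAs that are known to be induced by NF-kB, 6 rose and none fell, against 30.4% and 19.0% of all miRNAs, with a median of 2.05. These were miR-132-3p, miR-212-3p, miR-21-5p, miR-146b-5p, miR-155-5p and the scarce miR-147-3p. miR-155-5p, an activator of immune cells, stood at 60.4, 54.9 and 57.6 CPM at day 0 and 105, 108 and 84.7 CPM at day 3. No day 3 library reached down to the day 0 libraries (log2 fold change 0.77, SE 0.12, adjusted p = 2.92e-05). miR-9-5p, the other member that was not called, had a log2 fold change of -0.21, adjusted p = 0.263. A wider list of miRNAs associated with kidney injury and fibrosis had 15 of 16 members higher and miR-192-5p lower. The wider list was drawn from knowledge of this model, perhaps including these samples. It shares miR-132-3p, miR-212-3p, miR-21-5p, miR-146b-5p and miR-155-5p with the NF-kB list. Both lists were chosen with earlier results of these data known, so neither count is independent evidence of its direction.

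The miR-34 family, which p53 induces and which restrains the cell cycle, rose in all 5 of its tested members (of 6 listed), against 30.4% of all miRNAs. All but miR-34a-5p are strands of the miR-34b and miR-34c hairpins, neighbours on chromosome 9, so the rows are not independent. This list too was chosen with earlier results of these data known. miR-34a-5p stood at 62.5, 57.2 and 66.3 CPM at day 0 and 118, 75.3 and 115 CPM at day 3 (log2 fold change 0.70, SE 0.21, adjusted p = 0.0101). miR-34c-5p was the most abundant member at 185, 245 and 260 CPM at day 0 and 328, 331 and 334 CPM at day 3, and its day 3 libraries agreed closely (log2 fold change 0.54, SE 0.14, adjusted p = 0.00354). The rises of these strands were modest, with log2 fold changes from 0.54 to 1.34, the highest that of miR-34c-3p. miR-210-3p, the best known hypoxia miRNA, overlapped between the days at 44.8, 60.6 and 45.7 CPM at day 0 and 56.6, 47.5 and 55.97 CPM at day 3 (log2 fold change 0.09, SE 0.16, adjusted p = 0.679).

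miRNAs that mark fibroblasts and pericytes rose in all 6 tested rows, against 30.4% of all miRNAs, with a median of 0.84. All 6 rows are also in the kidney injury and fibrosis list above, so their count is not independent evidence of a direction. miR-214-3p and 1 locus of miR-199a lie together in an exon of Dnm3os, a transcript antisense to Dnm3 on chromosome 1. A second locus of miR-199a lies on chromosome 9, antisense to an intron of Dnm2, and the reads of both loci are pooled. miR-214-3p stood at 46.9, 43.4 and 50.1 CPM at day 0 and 272, 264 and 207 CPM at day 3, with the groups far apart (log2 fold change 2.37, SE 0.21, adjusted p = 1.39e-08). miR-199a-5p stood at 146, 159 and 185 CPM at day 0 and 337, 372 and 285 CPM at day 3 (log2 fold change 1.01, SE 0.15, adjusted p = 1.44e-05). miR-199a-3p stood at 2184, 1772 and 1769 CPM at day 0 and 3039, 2669 and 3090 CPM at day 3 (log2 fold change 0.62, SE 0.15, adjusted p = 0.00151), and its row holds the same reads as that of miR-199b-3p, so the list has fewer independent members than rows. miR-199b-5p was called (0.68, adjusted p = 0.0169), but not without replicate 2 of day 3 or of day 0. The summed level of the list ran from 3769 to 4585 CPM at day 0 and from 6035 to 6740 CPM at day 3.

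Leukocyte miRNAs rose in 8 of 11 tested members (12 listed) and none fell, against 30.4% and 19.0% of all miRNAs, with a median of 1.23. This list too was chosen with earlier results of these data known, and it shares miR-223-3p and miR-155-5p with the kidney injury and fibrosis list. Its count is therefore not independent evidence of a direction. miR-223-3p, a miRNA of neutrophils and other myeloid cells, stood at 32.3, 46.5 and 52.7 CPM at day 0 and 240, 271 and 160 CPM at day 3. All day 3 libraries were well above all day 0 libraries (log2 fold change 2.32, SE 0.21, adjusted p = 1.71e-08). miR-142-3p, found across blood cell lineages, stood at 54.7, 52.8 and 53.5 CPM at day 0 and 186, 308 and 187 CPM at day 3, with replicate 2 of day 3 above the other two (log2 fold change 2.02, SE 0.19, adjusted p = 2.37e-08). The more abundant strand miR-142-5p had a log2 fold change of 1.23, adjusted p = 8.79e-07, and miR-342-3p, whose hairpin lies in an intron of Evl, one of 1.23, adjusted p = 1.26e-05.

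Not every leukocyte miRNA was higher. miR-150-5p, which is abundant in mature lymphocytes, stood at 248, 297 and 374 CPM at day 0 and 242, 321 and 281 CPM at day 3, and the 2 days overlapped (log2 fold change -0.11, SE 0.20, adjusted p = 0.671). The summed level of the leukocyte list was 1156 to 1579 CPM at day 0 and 2188 to 3189 CPM at day 3, where replicate 2 was the highest. In bulk kidney, more cells of a type and more miRNA per cell cannot be told apart, nor can fewer cells and less miRNA per cell.

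**Figure D2:**
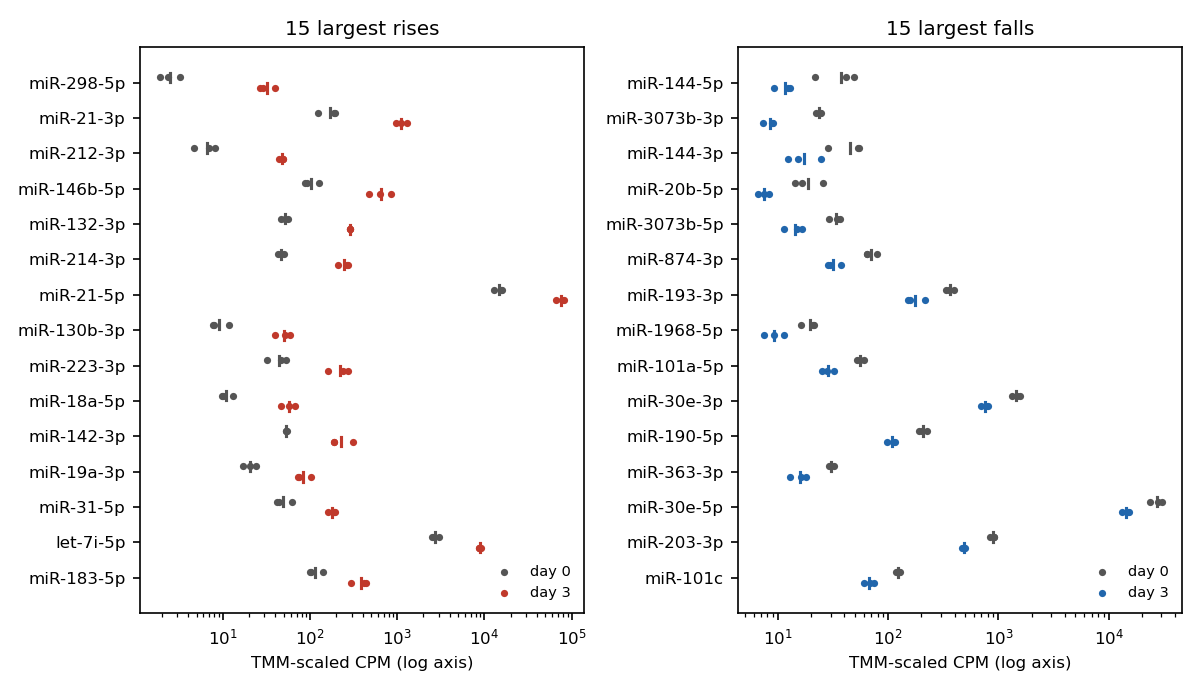
Levels in each library (dots, TMM-scaled CPM, log axis) and group means (vertical bars) for the 15 called miRNAs that rose most and the 15 that fell most, taken from those of at least 10 CPM without overlap of the days. miR-298-5p rose most and miR-144-5p fell most, and day 0 is grey in both panels.

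The paralogous clusters that carry the seeds AAAGUGC and AUUGCAC did not move together. The miR-17 to miR-92a cluster, which MYC and E2F activate, promotes proliferation. Of its 10 tested members 9 were higher and none lower, against 30.4% and 19.0% of all miRNAs, with a median of 1.15. Its members lie within about a kilobase of chromosome 14, in Mir17hg. miR-18a-5p stood at 13.02, 10.1 and 9.84 CPM at day 0 and 58.1, 67.4 and 46.1 CPM at day 3 (log2 fold change 2.27, SE 0.20, adjusted p = 1.39e-08). miR-19a-3p stood at 16.9, 20.6 and 23.7 CPM at day 0 and 71.96, 104 and 74.03 CPM at day 3 (log2 fold change 1.97, SE 0.21, adjusted p = 1.54e-07). Both were more than 4 times as high at day 3. The most abundant member, miR-92a-3p, stood at 5431, 5685 and 4744 CPM at day 0 and 10186, 9921 and 10080 CPM at day 3 and changed less (log2 fold change 0.93, SE 0.10, adjusted p = 1.51e-07). miR-17-5p and miR-20a-5p had log2 fold changes of 1.10 and 0.65. miR-92a-3p and miR-19b-3p also have a copy in the X-linked cluster, so their reads cannot be given to one locus.

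The miR-106b to miR-25 cluster, in Mcm7, a gene of the replication helicase, had all 6 tested members higher, against 30.4% of all miRNAs. Their median was 0.67. miR-25-3p stood at 1506, 1516 and 1213 CPM at day 0 and 2374, 2089 and 2035 CPM at day 3 (log2 fold change 0.62, SE 0.11, adjusted p = 1.26e-04). miR-93-5p stood at 949, 1036 and 873 CPM at day 0 and 1258, 1306 and 1222 CPM at day 3, the smallest change of the cluster (log2 fold change 0.41, SE 0.09, adjusted p = 9.48e-04). miR-106b-5p was called (0.55, adjusted p = 0.0181), but not without replicate 1 of day 3 or of day 0.

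The X-linked miR-106a to miR-363 cluster moved the other way. Of its 6 listed members 3 passed the read filter, and all 3 fell, against 19.0% of all miRNAs, with a median of -0.92. miR-20b-5p (chrX:52742159-52742181) stood at 14.3, 16.4 and 25.5 CPM at day 0 and 7.40, 8.21 and 6.62 CPM at day 3 (log2 fold change -1.20, SE 0.29, adjusted p = 0.00175). miR-363-3p stood at 29.9, 29.1 and 31.8 CPM at day 0 and 12.9, 16.1 and 18.1 CPM at day 3 (log2 fold change -0.92, SE 0.23, adjusted p = 0.00275). miR-106a-5p stood at 8.86, 8.99 and 9.26 CPM at day 0 and 5.89, 3.81 and 5.82 CPM at day 3 (log2 fold change -0.72, SE 0.21, adjusted p = 0.00795). All 3 are scarce, at 31.8 CPM or less in every library, but none overlapped between the days, and each kept its call in all alternatives run. The 2 remaining members of the seed AUUGCAC lie elsewhere: miR-92b-3p rose (0.73, adjusted p = 5.24e-04), and miR-32-5p, in an intron of Tmem245, fell (-0.61, adjusted p = 2.75e-04).

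The miR-183 cluster on chromosome 6, best known from sensory epithelia, had all 4 tested members higher, against 30.4% of all miRNAs. miR-182-5p, its abundant member, stood at 2099, 3024 and 2417 CPM at day 0 and 5850, 5195 and 4003 CPM at day 3 (log2 fold change 1.00, SE 0.21, adjusted p = 5.44e-04). miR-183-5p stood at 103, 142 and 101 CPM at day 0 and 439, 412 and 293 CPM at day 3 (log2 fold change 1.71, SE 0.21, adjusted p = 1.19e-06). miR-96-5p followed at 1.39, adjusted p = 6.89e-04, and the scarce miR-183-3p lost its call without replicate 1 of day 0. In the miR-15/16 family, which restrains cyclins, 3 of 7 members rose and none fell, against 30.4% and 19.0% of all miRNAs. With upper-quartile scaling 2 rose and 2 fell, so the calls of the family depend on the scaling. The median of the family was 0.45 in the main fit and 0.35 with upper-quartile scaling. miR-15b-5p, in an intron of the condensin gene Smc4, stood at 63.03, 56.6 and 63.4 CPM at day 0 and 168, 166 and 140 CPM at day 3 (log2 fold change 1.36, SE 0.13, adjusted p = 4.56e-08). miR-16-5p rose by less (0.45, adjusted p = 0.0106) and was not called without replicate 2 of day 3, without replicate 3 of day 0, with no filter, or with upper-quartile scaling.

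let-7, the differentiation-linked family with the seed GAGGUAG, had 4 of 9 members higher and none lower, against 30.4% and 19.0% of all miRNAs. let-7i-5p, on chromosome 10, stood at 2976, 2624 and 2479 CPM at day 0 and 8735, 9084 and 8668 CPM at day 3. The 6 libraries split into 2 tight groups (log2 fold change 1.72, SE 0.14, adjusted p = 4.06e-09), and let-7i-5p moved from rank 35 at day 0 to rank 20 at day 3. Its closest relative let-7g-5p stood at 6562, 5479 and 5889 CPM at day 0 and 5280, 5149 and 5660 CPM at day 3, with an overlap and no call (log2 fold change -0.15, SE 0.08, adjusted p = 0.131). let-7e-5p, from another locus, rose by 0.63 (adjusted p = 4.53e-05). let-7c-5p and miR-98-5p were called at 0.32 each, but the first lost its call in 11 and the second in 6 of 17 alternatives, both without replicate 2 or 3 of day 0 or replicate 3 of day 3. Without replicate 3 of day 0, with relative log expression or upper-quartile scaling, or with DESeq2, the family had 2 members higher and 1 lower.

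**Figure D3:**
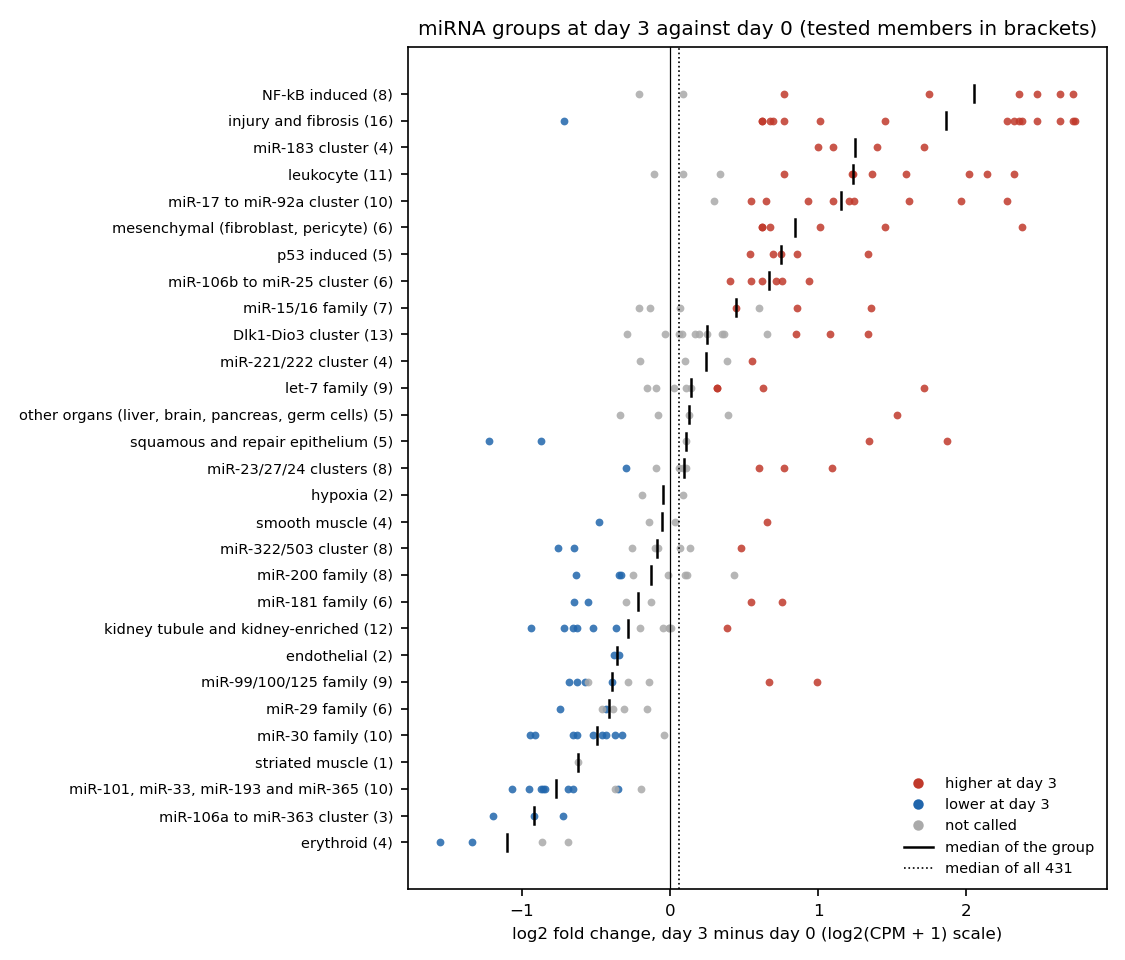
Each dot is a tested member of a miRNA group (members in brackets), placed by its log2 fold change, day 3 minus day 0. Black bars are group medians and the dotted line is the median of all 431 (0.06). NF-kB-induced miRNAs, the miR-183 and miR-17 to miR-92a clusters and leukocyte miRNAs lie to the right, and erythroid miRNAs, the miR-106a to miR-363 cluster and the miR-101, miR-33, miR-193 and miR-365 group lie to the left.

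Kidney-enriched miRNAs had a summed level of 422800 to 520900 CPM at day 0 and 345200 to 365700 CPM at day 3. Most of that sum was miR-10a-5p, miR-10b-5p, miR-192-5p and miR-30a-5p, and members such as miR-190-5p and miR-204-5p were far scarcer. Of the 12 listed miRNAs, 6 were lower and 1 higher, against 19.0% and 30.4% of all miRNAs, with a median of -0.28. miR-192-5p, a miRNA of the proximal tubule, stood at 124500, 129013 and 109143 CPM at day 0 and 78491, 65759 and 77191 CPM at day 3. All day 3 libraries were below all day 0 libraries (log2 fold change -0.71, SE 0.12, adjusted p = 6.37e-05). miR-194-2-5p (miR-194-5p in RefSeq), made in part from the same transcript, stood at 3420, 3449 and 3056 CPM at day 0 and 2278, 2282 and 2347 CPM at day 3 (log2 fold change -0.52, SE 0.13, adjusted p = 0.00304). miR-190-5p, in an intron of Tln2, fell by more, at 202, 191 and 224 CPM at day 0 and 96.5, 110 and 115 CPM at day 3 (log2 fold change -0.93, SE 0.18, adjusted p = 2.75e-04).

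The members of this group did not all fall. miR-204-5p, in an intron of Trpm3, was higher, at 324, 296 and 327 CPM at day 0 and 428, 395 and 415 CPM at day 3 (log2 fold change 0.38, SE 0.10, adjusted p = 0.00294). miR-10a-5p was the most abundant miRNA on both days and overlapped between them, at 108567, 150135 and 141131 CPM at day 0 and 133979, 141697 and 119723 CPM at day 3 (log2 fold change -0.01, SE 0.16, adjusted p = 0.978). miR-10b-5p, which differs from it at 1 of 23 bases, stood at 111191, 146798 and 118023 CPM at day 0 and 96488, 102431 and 91247 CPM at day 3 and was called by a narrow margin (log2 fold change -0.36, SE 0.15, adjusted p = 0.0420). That call was lost without replicate 2 of day 0, without replicate 1 or 3 of day 3, with no filter, and with library totals. miR-215-5p was called as well (-0.66, adjusted p = 0.00797), but not with library totals. On library totals 4 of the 12 were lower.

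The miR-30 family represses profibrotic and cytoskeletal genes in the tubule and podocyte. Of its 10 members 9 were lower and none higher, against 19.0% and 30.4% of all miRNAs, with a median of -0.49. miR-30e-5p, in an intron of Nfyc, stood at 23578, 28146 and 30413 CPM at day 0 and 13268, 15250 and 14984 CPM at day 3 (log2 fold change -0.91, SE 0.16, adjusted p = 9.73e-05). miR-30a-5p, the most abundant member, stood at 72740, 89377 and 79082 CPM at day 0 and 52299, 50807 and 52491 CPM at day 3 (log2 fold change -0.63, SE 0.11, adjusted p = 1.24e-04). No library of one day reached the range of the other. The 3p strand of miR-30e fell alongside, at 1340, 1556 and 1459 CPM at day 0 and 771, 694 and 797 CPM at day 3 (log2 fold change -0.94, SE 0.12, adjusted p = 2.81e-06). As a share of all reads the 5p arms of the family went from 13.9% ± 0.834 to 10.1% ± 0.394 (SD, n = 3 per day). On library totals 6 of the 10 were lower, and miR-30a-3p, miR-30c-3p and miR-30d-5p were not called.

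Epithelial miRNAs of the miR-200 family had 3 of 8 tested members lower (10 listed), against 19.0% of all miRNAs. miR-200a-3p, a repressor of ZEB factors, stood at 1571, 1698 and 1985 CPM at day 0 and 1138, 1059 and 1181 CPM at day 3 (log2 fold change -0.63, SE 0.10, adjusted p = 2.72e-05). The other two calls, miR-200a-5p and miR-200b-5p, at -0.34 and -0.33, were not made on library totals, with only the 2 days fitted, or without 1 or more single libraries, and on library totals 1 member was called higher, so the direction of the family depends on the scaling. miR-29, which represses collagen genes, had 2 of 6 members lower, against 19.0% of all miRNAs. These were miR-29c-3p at 761, 753 and 997 CPM at day 0 and 522, 493 and 474 CPM at day 3 (log2 fold change -0.74, SE 0.14, adjusted p = 1.73e-04), and miR-29a-3p by -0.43 (adjusted p = 0.00214), the latter not on library totals.

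Among epithelial miRNAs linked to squamous tissue and repair, miR-203 and miR-31 moved in opposite directions. miR-203-3p, a brake on epithelial proliferation, stood at 916, 902 and 838 CPM at day 0 and 464, 495 and 492 CPM at day 3 (log2 fold change -0.87, SE 0.13, adjusted p = 1.19e-05). miR-31-5p stood at 43.5, 61.4 and 41.7 CPM at day 0 and 192, 160 and 187 CPM at day 3 (log2 fold change 1.87, SE 0.19, adjusted p = 1.06e-07). Both strands of each hairpin were called in the same direction as the strand given. miR-205-5p varied more between libraries than between days, at 88.3, 180 and 72.7 CPM at day 0 and 108, 174 and 76.6 CPM at day 3 (log2 fold change 0.11, SE 0.49, adjusted p = 0.872).

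The miR-101, miR-33, miR-193 and miR-365 group has members that act on lipid metabolism, polycomb and growth genes. Of 10 tested members (12 listed), 8 were lower and none higher, against 19.0% and 30.4% of all miRNAs, with a median of -0.77. The group is no family or cluster but a list put together with earlier results of these data known. Its count describes these miRNAs and is not independent evidence of a direction. miR-193-3p (miR-193a-3p in RefSeq) stood at 335, 354 and 397 CPM at day 0 and 152, 157 and 213 CPM at day 3 (log2 fold change -1.06, SE 0.19, adjusted p = 1.08e-04). miR-101a-3p, the abundant member, stood at 13112, 14011 and 12272 CPM at day 0 and 7991, 7942 and 8472 CPM at day 3 (log2 fold change -0.69, SE 0.09, adjusted p = 3.51e-06). miR-33-5p, in an intron of Srebf2, the gene of a cholesterol regulator, stood at 25.5, 23.1 and 20.3 CPM at day 0 and 13.9, 11.1 and 12.04 CPM at day 3 (log2 fold change -0.84, SE 0.17, adjusted p = 3.81e-04). Every library of day 3 was below day 0 for these. miR-101c (-0.87, adjusted p = 3.48e-06) has a RefSeq sequence contained in that of miR-101a-3p, so the 2 rows are not independent. On library totals 6 of the 10 were lower, and miR-101b-3p and miR-193b-3p were not called.

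Other large falls were in miRNAs with less known roles. miR-3073b-3p, antisense to an intron of Aspg on chromosome 12, stood at 23.96, 24.3 and 22 CPM at day 0 and 8.73, 7.33 and 9.03 CPM at day 3 (log2 fold change -1.39, SE 0.34, adjusted p = 0.00197). Its partner miR-3073b-5p fell by a similar amount (-1.18, adjusted p = 4.70e-04). miR-874-3p stood at 64.1, 63.7 and 79.6 CPM at day 0 and 29.4, 28.4 and 37.5 CPM at day 3 (log2 fold change -1.10, SE 0.18, adjusted p = 4.46e-05), and miR-1968-5p, in an intron of Grtp1, had a log2 fold change of -1.002, adjusted p = 5.83e-04.

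The largest rise of all was in a scarce miRNA. miR-298-5p (chr2:174267553-174267575) stood at 2.34, 1.91 and 3.18 CPM at day 0 and 29.2, 39.9 and 26.9 CPM at day 3. Its level was 12.9 times as high at day 3, with no overlap (log2 fold change 3.24, SE 0.26, adjusted p = 3.70e-09). miR-130b-3p, of the seed AGUGCAA, stood at 7.81, 11.7 and 7.82 CPM at day 0 and 51.3, 58.3 and 39.9 CPM at day 3 (log2 fold change 2.34, SE 0.18, adjusted p = 2.22e-09). miR-375-3p, a miRNA of pancreatic islets and other epithelia that was listed here as a marker of other organs, stood at 201, 186 and 180 CPM at day 0 and 616, 465 and 570 CPM at day 3 (log2 fold change 1.53, SE 0.14, adjusted p = 2.00e-08). The pancreatic acinar miRNAs miR-216a-5p and miR-217-5p had no read in any of the 6 libraries. The source of the miR-375-3p reads was not tested.

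Markers of vessels and blood moved less clearly. The endothelial strands miR-126-3p and miR-126-5p were both called lower, at -0.37 and -0.34, and neither was called on library totals. The first also lost its call without replicate 1 of day 3, and the second without replicate 3 of day 3 or replicate 2 of day 0. Of the smooth muscle miRNAs, miR-143-3p overlapped between the days at 79910, 76289 and 61531 CPM at day 0 and 64969, 67087 and 63973 CPM at day 3 (log2 fold change -0.14, SE 0.11, adjusted p = 0.299). The 4 erythroid miRNAs had a summed level of 3259, 3380 and 1293 CPM at day 0 and 1771, 1139 and 1194 CPM at day 3, so replicate 3 of day 0 lay near the day 3 libraries. miR-144-5p stood at 40.9, 48.6 and 21.7 CPM at day 0 and 12.3, 9.09 and 12.8 CPM at day 3 (log2 fold change -1.55, SE 0.55, adjusted p = 0.0221) and miR-144-3p at 53.1, 54.7 and 28.1 CPM at day 0 and 24.3, 12.3 and 15.2 CPM at day 3 (log2 fold change -1.33, SE 0.49, adjusted p = 0.0290). Both calls were lost with no filter, with robust empirical Bayes, without replicate 1 or 2 of day 0, and without replicate 2 of day 3, and that of miR-144-3p also on library totals and without replicate 3 of day 3. miR-451 (-0.69, adjusted p = 0.222) and miR-486-5p (-0.87, adjusted p = 0.152) were not called, but without replicate 3 of day 0 all 4 erythroid miRNAs were called lower. Red cells make miR-451 and miR-144 from 1 locus, and how much blood each sample held was not tested.

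Of the 51 listed miRNAs of the imprinted Dlk1-Dio3 region, 13 passed the filter, and 3 of these rose, a smaller share than the 30.4% of all miRNAs (6 of 13 on library totals): miR-409-3p (1.34, adjusted p = 0.00222), miR-341-3p (1.08, adjusted p = 0.00997) and miR-541-5p (0.85, adjusted p = 0.0121). miR-341-3p lost its call without replicate 1 of day 3, and miR-541-5p without replicate 2 of day 3 or replicate 3 of day 0. In the miR-181 family, miR-181a-5p fell, at 17629, 22974 and 18374 CPM at day 0 and 12190, 12094 and 13129 CPM at day 3 (log2 fold change -0.65, SE 0.10, adjusted p = 4.12e-05), while miR-181d-5p rose, at 107, 128 and 109 CPM at day 0 and 200, 196 and 186 CPM at day 3 (log2 fold change 0.75, SE 0.15, adjusted p = 3.17e-04), though they share the seed ACAUUCA. In the miR-23/27/24 clusters miR-23a-3p and miR-23b-3p rose, by 0.60 and 0.77. The muscle, liver and brain miRNAs miR-1a-3p, miR-122-5p and miR-124-3p did not pass the filter and stayed at or below 1.25 CPM in all 6 libraries.

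The most abundant miRNAs took a slightly smaller share of the reads at day 3. The 10 most abundant held 73.9% ± 0.907 at day 0 and 71.4% ± 0.545 at day 3 (SD, n = 3 per day), with no overlap. A two-sided exact permutation test over the 6 libraries gave p = 0.1, the smallest that 3 against 3 can give. miR-10a-5p held 12.6% and 14.2%, and miR-192-5p held 11.4% and 7.98%. By mean share miR-21-5p rose from rank 15 to rank 4, at 8.10% just above miR-192-5p. Replicate 2 was the only day 3 library with more miR-21-5p than miR-192-5p (8.60% against 6.98%). miR-22-3p kept rank 3, with 121714, 119222 and 124013 CPM at day 0 and 90910, 91212 and 92261 CPM at day 3 (log2 fold change -0.41, SE 0.10, adjusted p = 0.00124), a call not made on library totals. miR-26a-5p fell (-0.53, adjusted p = 5.51e-05), and let-7f-5p, at rank 10, did not pass the test (0.03, adjusted p = 0.823).

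The 5p and 3p arms of a miRNA were paired by name, and their log2 ratio was taken within a library. A ratio of the levels alone would need no scaling between libraries. Here 1 CPM was added to each TMM-scaled arm first, so ratios with a scarce arm depend on that pseudocount and on the scaling. A pair is 1 hairpin unless the miRNA has several loci, whose reads are then pooled. Of 147 such pairs with both arms tested, 31 had both arms higher, 20 both lower, 3 in opposite directions, 47 one arm only and 46 neither. The log2 ratio of 5p to 3p changed in 24 pairs (16.3%), 10 towards 5p and 14 towards 3p. Without replicate 3 of day 0 the count was 14, and it was 44 with a pseudocount of 5 CPM in place of 1.

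Opposite calls for the 2 arms were made in miR-26a, miR-181c and miR-145. For miR-181c, in an intron of Nanos3 on chromosome 8, the log2 ratio was 4.21, 4.28 and 4.22 at day 0 and 2.92, 3.31 and 3.19 at day 3 (change -1.10, SE 0.15, adjusted p = 5.89e-06). miR-181c-5p went from 1085 ± 139 CPM at day 0 to 736 ± 36.8 CPM at day 3, and miR-181c-3p from 56.4 ± 5.86 CPM at day 0 to 82.9 ± 7.24 CPM at day 3 (SD, n = 3). The 3p rise was not called without replicate 1 or 3 of day 0, while the change in ratio kept its call in all alternatives run. For miR-26a, whose 5p arm pools reads of 2 loci, the ratio was 12.94, 12.94 and 12.79 at day 0 and 11.76, 11.54 and 11.55 at day 3 (change -1.28, SE 0.23, adjusted p = 3.05e-04), but its 3p arm had under 8 CPM in every library. For miR-145 it was 1.501, 1.51 and 1.15 at day 0 and 2.08, 2.91 and 2.56 at day 3 (change 1.13, SE 0.27, adjusted p = 0.00353), with the 5p arm higher (0.65, adjusted p = 0.0300) and the 3p arm lower (-0.48, adjusted p = 0.0159), and both arm calls are unstable: the 5p call was lost in 7 of 17 alternatives, among them leaving out any 1 library of day 0 or replicate 2 of day 3, and the 3p call in 4, among them library totals and leaving out replicate 3 of day 0 or of day 3.

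In other hairpins 1 arm moved alone. For miR-28 the ratio was 1.21, 1.46 and 1.83 at day 0 and 0.49, 0.56 and 0.59 at day 3 (change -0.96, SE 0.16, adjusted p = 1.05e-04), as miR-28-3p rose from 98.98 ± 9.50 CPM at day 0 to 166 ± 4.42 CPM at day 3 while miR-28-5p went from 283 ± 39.5 CPM at day 0 to 242 ± 14.3 CPM at day 3 and was not called. For miR-99b the change was towards 3p (change -1.13, SE 0.22, adjusted p = 4.80e-04), with miR-99b-3p higher (0.99, adjusted p = 2.55e-04) and miR-99b-5p spread from 1784 to 4805 CPM among the day 0 libraries alone. For miR-27a it was towards 5p (change 1.18, SE 0.20, adjusted p = 1.05e-04), with the scarce miR-27a-5p higher and miR-27a-3p not called (-0.09, adjusted p = 0.513). The log2 ratio of miR-21 itself was 6.37, 6.32 and 6.68 at day 0 and 5.91, 6.21 and 6.11 at day 3. That small move towards 3p was called by a narrow margin (change -0.38, SE 0.13, adjusted p = 0.0446).

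**Figure D4:**
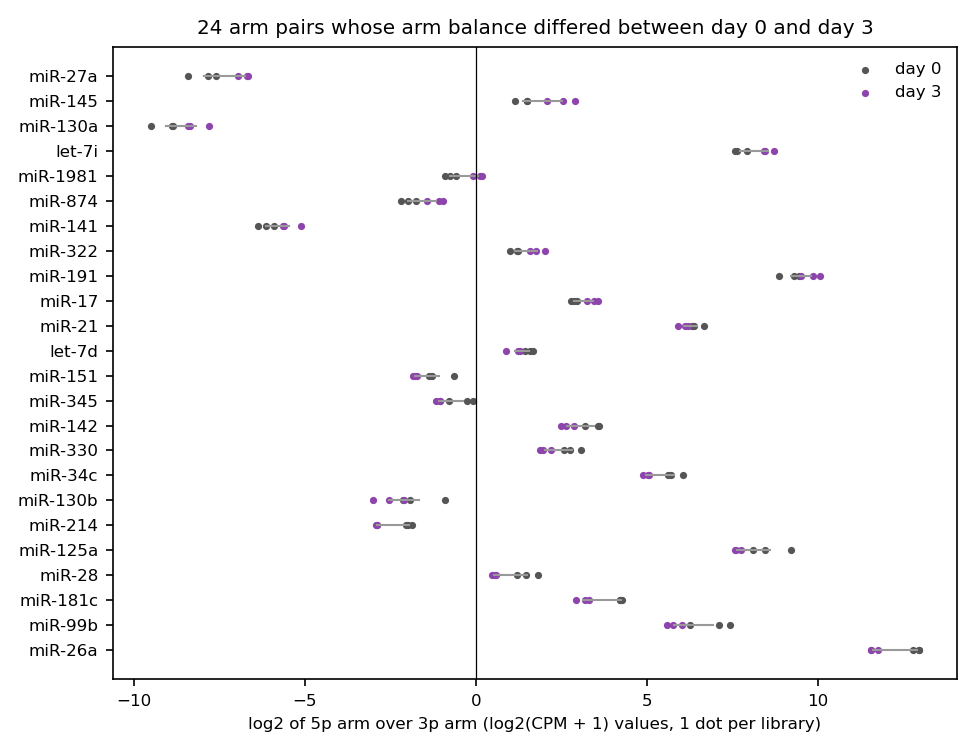
The log2 ratio of the 5p arm over the 3p arm in each library of day 0 (grey) and day 3 (purple) for the 24 arm pairs whose balance changed, ordered by the change. The lines join group means. miR-27a, at the top, moved most towards 5p and miR-26a, at the bottom, most towards 3p.

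Day 3 was also set against its neighbours, with no day 0 library in either contrast. Against day 2, 23 miRNAs were called (5.34%), 16 higher (3.71%) and 7 lower (1.62%). The higher ones include immune and mesenchymal miRNAs and the lower ones are mostly erythroid. These counts rest on single libraries: leaving out replicate 2 of day 3 gave 6 calls, and leaving out replicate 1 of day 3 or replicate 1, 2 or 3 of day 2 gave 9, 10, 9 and 13.

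miR-146b-5p stood at 291, 324 and 262 CPM at day 2 and 475 to 838 CPM at day 3 (log2 difference 1.11, SE 0.20, adjusted p = 0.00399). miR-146a-5p was at 128, 167 and 124 CPM at day 2, below every library of days 0 and 3, and its rise to day 3 was called (log2 difference 0.91, SE 0.21, adjusted p = 0.0162) though its level at day 3 did not differ by the test from day 0. The gain from day 2 was 0.86 for miR-142-3p, 0.86 for miR-130b-3p and 0.83 for miR-214-3p, and all 3 lost the call without replicate 2 of day 3, as did miR-146a-5p.

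Of days 0, 2, 3 and 7, the days compared here, the summed erythroid level was highest at day 2. miR-451 was at 1712, 1442 and 835 CPM at day 2 and 298, 174 and 227 CPM at day 3 (log2 difference -2.48, SE 0.45, adjusted p = 0.00399). miR-144-3p was at 146, 121 and 68.4 CPM and 24.3, 12.3 and 15.2 CPM (log2 difference -2.61, SE 0.49, adjusted p = 0.00399), and miR-486-5p differed by -2.45. The summed erythroid level was 4729 to 9598 CPM at day 2. The row of miR-3107-5p, also called lower, has levels within 0.466% of those of miR-486-5p and is not a separate result.

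Between day 3 and day 7, 8 miRNAs were called (1.86%), 7 higher at day 7 (1.62%) and 1 lower (0.232%). Leaving out replicate 1 or 2 of day 7, or replicate 1 or 3 of day 3, gave 4 calls, and leaving out replicate 3 of day 7 gave 21. miR-199a-3p rose further, from 3039, 2669 and 3090 CPM to 5016, 5245 and 5095 CPM (log2 difference 0.81, SE 0.15, adjusted p = 0.00312). miR-181c-5p, which was below its day 0 level at day 3, stood at 1305, 1276 and 1147 CPM at day 7 (log2 difference 0.75, SE 0.11, adjusted p = 3.45e-04). miR-155-5p was the 1 miRNA that fell, to 74.3, 70.2 and 65.6 CPM (log2 difference -0.49, SE 0.12, adjusted p = 0.0323), and lost its call without any 1 of 5 of the 6 libraries. miR-192-5p, miR-21-5p and miR-132-3p were called in neither neighbouring contrast.

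**Figure D5:**
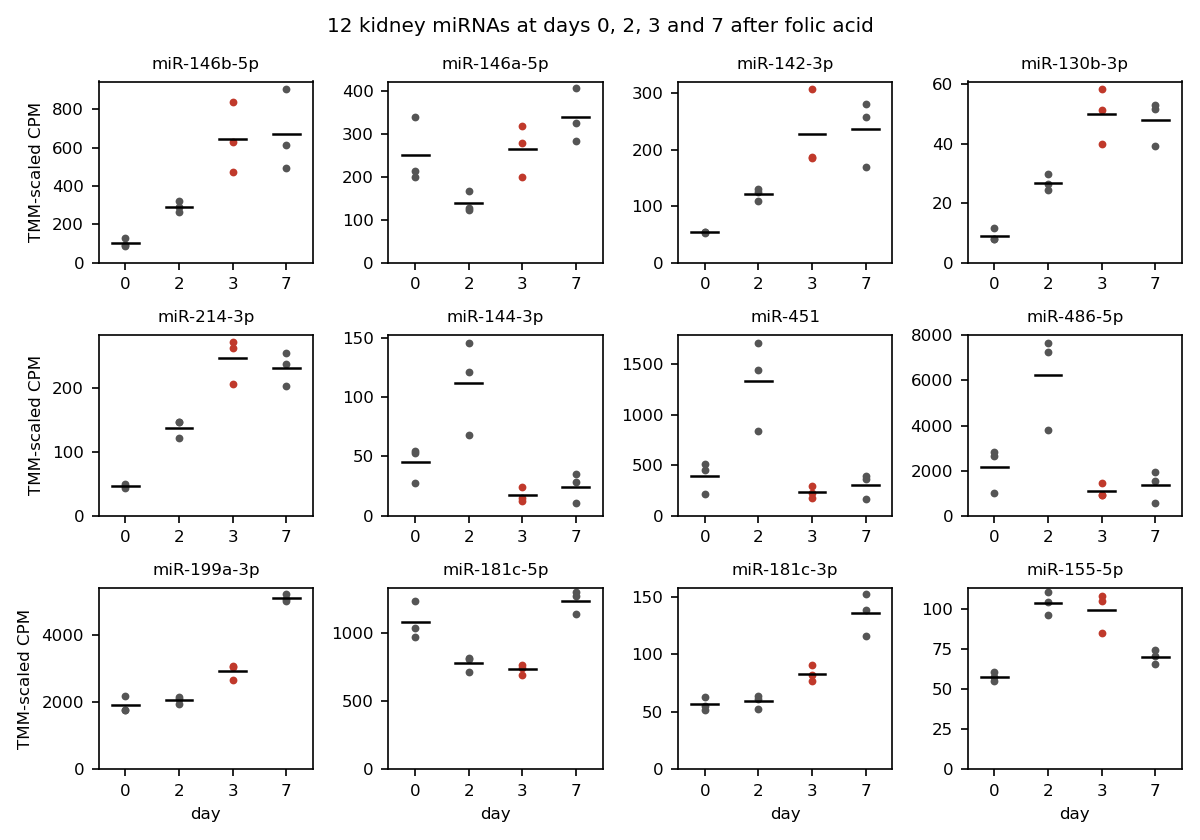
TMM-scaled CPM in each library (dots) with group means (bars) at days 0, 2, 3 (red) and 7 for 12 miRNAs. miR-146b-5p, miR-142-3p, miR-130b-3p and miR-214-3p had higher means at day 3 than at day 2, miR-144-3p, miR-451 and miR-486-5p had their highest means at day 2, and miR-199a-3p had its highest at day 7.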

How the data were processed

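Small RNA libraries of whole kidney were sequenced on a HiSeq after TruSeq preparation, per the labels. The authors deposited a table of CPM for 1125 mature miRNAs over 21 libraries, and each column sums to 1000000. The submitters' processing notes name CASAVA 1.8 and the mouse build mm9; no aligner, counter or miRBase release is given in the sources used here. The deposited CPM are whole multiples of what 1 read is worth, and whole reads were recovered for 100% of the values within 0.05 of a read. Totals of 2875675 to 7110546 recovered reads set the depth of the libraries. A count of 0 allows up to 3 reads, counting error only.

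The edgeR (4.0.16) function filterByExpr, with a minimum count of 10 on the recovered reads, left 431 miRNAs. CPM were TMM-scaled and log2(CPM + 1) was tested with limma-trend (limma 3.58.1, R 4.3.3) in 1 fit over the 21 libraries with a mean per day, Benjamini-Hochberg adjusted over the 431. The contrasts were day 3 minus day 0, day 3 minus day 2 and day 7 minus day 3. Arm balance was tested the same way on the log2 ratio of 147 arm pairs. Other scalings, pseudocounts and filters, DESeq2 (1.42.0) and edgeR quasi-likelihood on recovered reads, a replicate block, and leaving out each library in turn were run as alternatives. The tests were checked on simulated data.

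Named miRNAs were the 15 that rose most and the 15 that fell most among calls of at least 10 CPM without overlap, members of 29 lists, the 10 most abundant at day 3, and the 5 largest calls each way in the other contrasts. Members of a shared seed, the other arm of a named hairpin and miR-3107-5p were named beside them. The members and lists were chosen with earlier results of these data known. The table uses older miRBase names; sequences, positions and host genes were matched by name to RefSeq and GENCODE vM21 on GRCm38, not to the authors' build. Rows with identical reads (12 tested) cannot be separated. Genome coordinates are of 1 locus where a miRNA has several.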

Additional observations from a re-analysis of the deposited data

How the results depend on the processing

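The count of miRNAs called at day 3 against day 0 stayed between 188 and 217 in every alternative run, against 213. It was 211 with edgeR's quasi-likelihood test and 211 with DESeq2 on recovered reads, and 206 of 424 with identical rows counted once, an alternative chosen after seeing the data. Of 124 called miRNAs named or listed, 93 kept their call and direction in all alternatives and 31 lost the call in at least 1. Of 71 that were not called, 19 gained a call and 35 changed sign without one in at least 1 alternative. The replicate numbers did not pair the libraries: deviations of same-numbered day 0 and day 3 libraries correlated at -0.053, -0.019 and -0.114. With the replicate block the counts were 209 at day 3 against day 0, 21 against day 2, 6 at day 7 against day 3, and 22 for arm balance.

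The other counts moved more, and the cause was not tested. Day 3 against day 2 gave 9 calls with no filter, 13 with upper-quartile scaling, and 6 to 17 leaving out 1 library, against 23. Day 7 against day 3 gave 3 with no filter, 21 with DESeq2, and 4 to 21 leaving out 1 library, against 8. Arm balance gave 44 with a pseudocount of 5 CPM, 41 with no filter, and 14 to 24 leaving out 1 library. The share of the most abundant miRNAs changed by -2.47 points for the 10 most abundant, by -4.587 for the 5 most abundant, and by -2.884 to -1.986 leaving out 1 library.

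Differences near 0 that were not called changed sign. With library totals they became 0.0344 for let-7g-5p, 0.182 for miR-10a-5p, 0.0452 for miR-143-3p, 0.0762 for miR-150-5p, 0.0953 for miR-27a-3p and 0.0469 for miR-99b-5p. With upper-quartile scaling they became -0.0763 for let-7f-5p, and -0.0105 for each of miR-146a-5p and miR-210-3p. let-7f-5p was at -0.037 with relative log expression scaling and -0.0433 with DESeq2, and miR-10a-5p at 0.0072 with only the 2 days fitted. Leaving out 1 library gave ranges of -0.0835 to 0.0802 for let-7f-5p, -0.189 to 0.0811 for miR-10a-5p, -0.0854 to 0.303 for miR-146a-5p, -0.295 to 0.017 for miR-150-5p, -0.238 to 0.485 for miR-205-5p, -0.0523 to 0.222 for miR-210-3p and -0.52 to 0.154 for miR-99b-5p. For the gain of miR-146a-5p from day 2 the highest such value was 1.11.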

Other observations

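Other listed families had counts that are read against the 30.4% of all miRNAs called higher and the 19.0% called lower. Most lie near those shares and say nothing particular to the family. In the X-linked cluster of miR-322 and miR-503, whose miRNAs restrain the cell cycle and accompany muscle differentiation, 2 of 8 tested members (9 listed) were lower and 1 higher at day 3. miR-322-3p stood at 235, 231 and 256 CPM at day 0 and 132, 146 and 147 CPM at day 3 (log2 fold change -0.76, SE 0.13, adjusted p = 6.05e-05), and miR-351-5p, of the same cluster, at 545, 562 and 661 CPM at day 0 and 780, 877 and 800 CPM at day 3 (log2 fold change 0.48, SE 0.14, adjusted p = 0.00793). The rise of miR-351-5p was not called without replicate 1 of day 0. In the cluster of miR-221 and miR-222, which promotes proliferation through cyclin-dependent kinase inhibitors, miR-221-3p was the 1 called member of 4, at 1077, 930 and 879 CPM at day 0 and 1455, 1311 and 1454 CPM at day 3 (log2 fold change 0.55, SE 0.09, adjusted p = 7.31e-05). Among the miR-23/27/24 miRNAs 3 of 8 tested members were higher and 1 lower, and among the miR-181 family 2 of 6 were higher and 2 lower.

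The miR-99, miR-100 and miR-125 miRNAs, which lie in 3 clusters with let-7 genes, had 4 of 9 tested members lower and 2 higher. miR-99a-5p stood at 284, 397 and 467 CPM at day 0 and 259, 262 and 233 CPM at day 3 (log2 fold change -0.58, SE 0.14, adjusted p = 0.00232). Replicate 3 of day 0 held the highest level of miR-99a-5p, miR-99b-5p, miR-100-5p, miR-125a-5p and miR-125b-5p among the 6 libraries. miR-125b-5p was called (-0.39, adjusted p = 0.0333), but not without that library, without replicate 1 or 3 of day 3, on library totals, with no filter, or with only the 2 days fitted.

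Of the remaining marker lists, the 4 smooth muscle strands had 1 higher and 1 lower, close to the 49.4% of all miRNAs called. The 2 tested hypoxia strands had none, 1 of 7 striated muscle miRNAs passed the read filter and was not called, and 1 of 5 tested miRNAs of other organs (11 listed) was higher.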
